A study of Gallus gallus with 6 samples.

Results

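The nucleoporins, importins and exportins are the genes of nucleocytoplasmic transport, and 44 of them were followed here in the hen ovary. A probe set was taken as a member where its single gene symbol in the annotation of the chicken array began with NUP and a digit, KPNA, KPNB, IPO and a digit, TNPO or XPO. These symbols covered 120 probe sets, and for each gene the probe set with the highest mean over the 6 arrays was used, which gave 44 genes of the 13009 genes with 1 symbol. By role, 22 were nucleoporins and 22 were carriers, namely 7 importin alphas, 9 members of the importin beta family and 6 exportins. The symbols are those of the array annotation, and 42 of the 44 genes were found under the same gene identifier among the RefSeq chicken genes.

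Nuclear pores are large protein assemblies that span the nuclear envelope and let proteins and RNA pass between nucleus and cytoplasm. Nucleoporins build the pore: an outer ring and an inner ring form the scaffold, membrane proteins anchor it, and nucleoporins with phenylalanine-glycine repeats fill the channel. Importins carry cargo into the nucleus and exportins carry it out, and the small GTPase Ran sets the direction. Importin alpha is an adaptor that binds the classical nuclear localisation signal and rides on importin beta. In growing oocytes of many animals the nucleus, or germinal vesicle, is large, and pore proteins and import factors are stored for the rapid divisions of the embryo.

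The study compared mRNA of the germinal disc region, the small disc of yolk-free cytoplasm with the oocyte nucleus, with mRNA of the surrounding granulosa cells on 6 Affymetrix chicken arrays. All tissue came from untreated ISA Brown laying hens aged 60 weeks, and each array carried RNA pooled from 25 hens. There were 3 groups of 2 arrays: Ov GDR is the germinal disc region taken after ovulation, F1 GDR is that of the F1 follicle, the largest preovulatory one, and F1 GCs are the granulosa cells of that follicle. F1 GDR keeps some overlying granulosa cells that cannot be taken off, whereas Ov GDR is described as free of them, and since all samples are bulk tissue, fewer cells of a type and less RNA per cell cannot be told apart.

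All values are gcrma log2 values, so that a difference of 1 is a 2-fold difference in signal. A difference was called at an adjusted p under 0.05 in limma, with Benjamini-Hochberg adjustment over 38439 probe sets, and values are given in the order of the arrays, first 1 and then 2. Background was set per array at the top value of 23 controls that match no hen sequence, and it lay between 2.76 and 3.27. Of the 44 members, 36 were above background on all 6 arrays and 3 (NUP210L, NUP42L4 and TNPO3) were at background in each group, the first 2 at 2.79 or under on each array.

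The labels were checked against marker genes. Of 8 granulosa genes, 5 were called lower in Ov GDR than F1 GCs, among them the steroidogenic genes STAR, CYP11A1 and HSD3B1, and 1, FOXL2, was called higher. FOXL2 made up 86.4% to 90.2% of their summed linear signal in Ov GDR, 27.8% to 29.8% in F1 GDR and 9.95% to 11% in F1 GCs. The other 7 summed to 449 to 529 in Ov GDR, 5700 to 8000 in F1 GDR and 16600 to 16900 in F1 GCs. Of these 7, AMH and FSHR were not called but lay higher in Ov GDR than F1 GCs without overlap. AMH measured 6.17 and 7.70 in Ov GDR and 5.50 and 5.48 in F1 GCs. FSHR measured 7.93 and 7.75 in Ov GDR and 7.59 and 7.35 in F1 GCs. INHA, the inhibin alpha subunit, was at background in Ov GDR. The summed signal of 7 oocyte genes was 680 to 1040 in Ov GDR, 698 to 786 in F1 GDR and 41.7 to 60.9 in F1 GCs. BMP15 and DDX4 were at background in each group and MOS was at background in F1 GCs. By real-time PCR the study found BMP15 and DDX4 mainly in the germinal disc region, so background on these probe sets does not show absence. The antigen presentation gene CD74 was at background in Ov GDR (2.45 and 2.33) and measured 8.61 and 8.17 in F1 GDR and 9.89 and 9.21 in F1 GCs, while PTPRC and CD3E were at background in each group.

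By the study's account, ribosomal RNA of the germinal disc region seemed degraded from ovulation until oviposition, with mRNA almost intact after ovulation. The part of this RNA state in the values of Ov GDR was not tested. RNA quality also differed between arrays. The log2 difference between control probe sets at the 3′ and the 5′ end of a transcript was 5.02 for actin, 2.82 for GAPDH and 4.51 for EF1A on Ov GDR 1, against 1.53, 0.11 and 1.48 on Ov GDR 2. It was 2.65, 0.79 and 1.85 on F1 GDR 1, 3.57, 1.77 and 3.10 on F1 GDR 2, 3.23, 0.91 and 1.31 on F1 GCs 1, and 2.46, 0.54 and 1.09 on F1 GCs 2. Among the 120 member probe sets, 10 lay over 3 log2 units apart between the Ov GDR arrays, and all 10 were lower on Ov GDR 1. None lay so far apart between the F1 GDR arrays or between the F1 GCs arrays. The mean of 21 bacterial control probe sets, for RNA added to each sample at hybridisation, was 10.73 and 10.60 in Ov GDR, 9.73 and 9.71 in F1 GDR, and 8.86 and 9.26 in F1 GCs, and its part in the differences between groups was not tested.

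**Figure D1:**
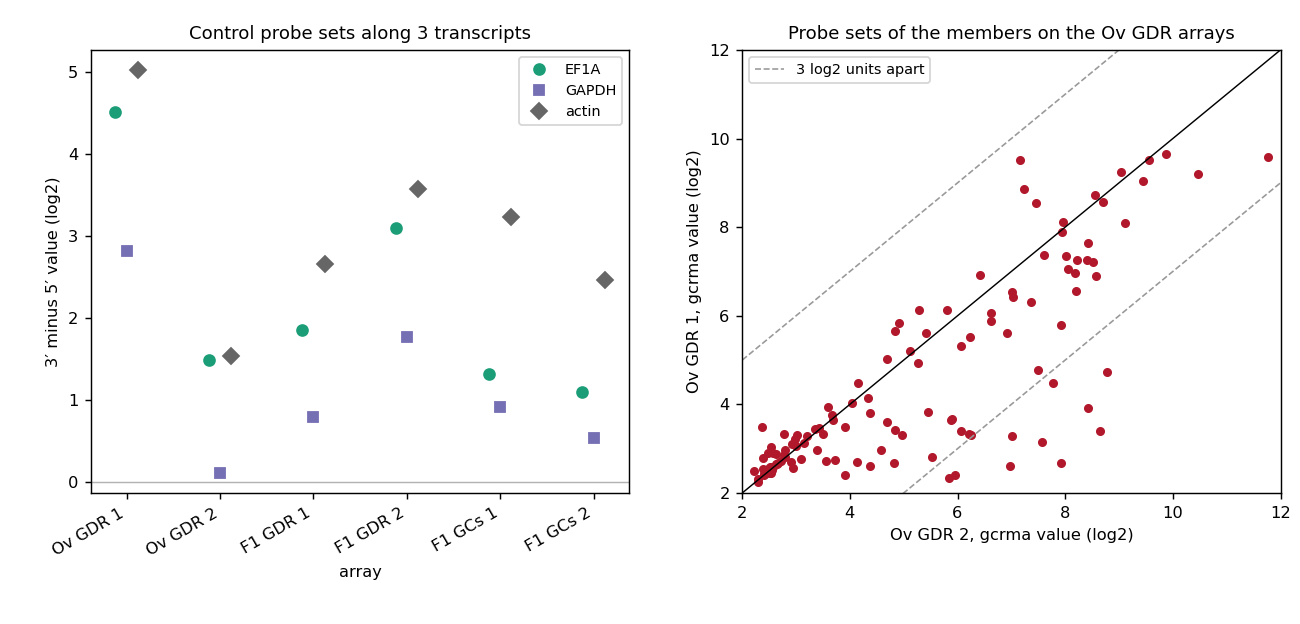
Left, log2 difference between the 3′ and 5′ control probe sets of actin, GAPDH and EF1A on each array. Right, gcrma log2 values of the 120 member probe sets on both Ov GDR arrays, with the line of equality and dashed lines at 3 log2 units; Ov GDR 1 has the widest 3′ to 5′ differences, up to 5.02, and the 10 probe sets past a dashed line all lie below the line of equality.

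The arrays were first set in order for each member. In 15 of 22 nucleoporins both F1 GCs arrays lay below all Ov GDR and F1 GDR arrays, and in 0 of 22 they lay above all of them. The 15 include NUP210L, which was at background in each group, so that 14 had signal to compare. Among the 22 carriers the F1 GCs arrays lay below the others in 4 and above them in 8. Over the brightest probe sets of all 13009 genes the same orders were found in 31.8% and 18.7%, and over all 38439 probe sets in 29.0% and 14.6%. The mean of F1 GDR lay between those of Ov GDR and F1 GCs in 27 of the 44 members, against 60.3% of the brightest probe sets, which is near the background.

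**Figure D2:**
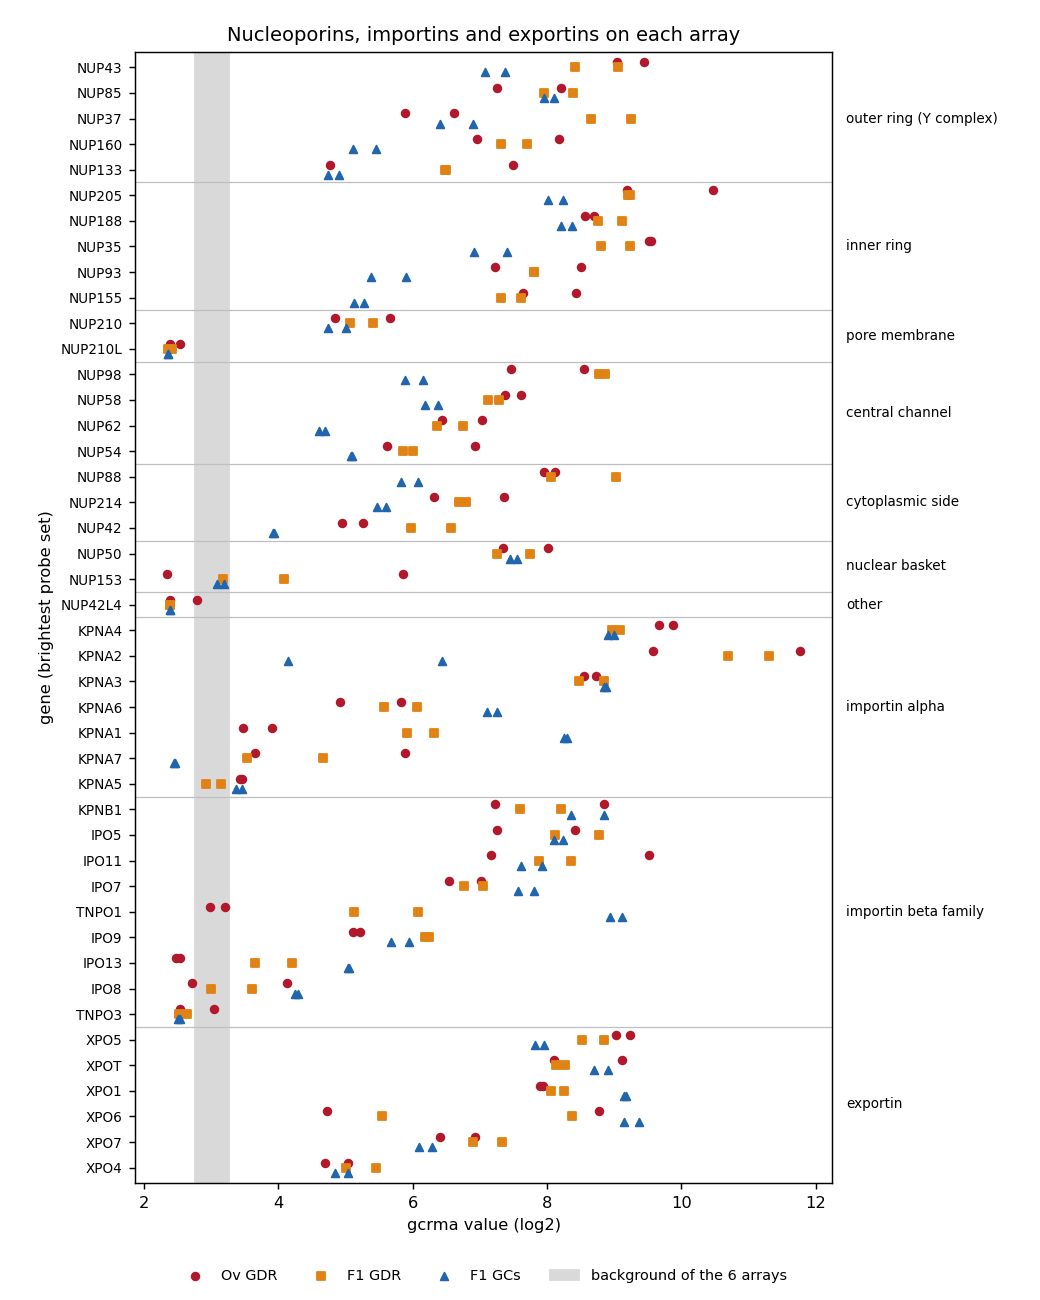
gcrma log2 values of the 44 members (x axis) on each of the 6 arrays, 1 row per gene, grouped by role, with the range of array backgrounds (2.76 to 3.27) in grey. In 15 of 22 nucleoporins, NUP210L at background among them, both F1 GCs arrays lie left of all germinal disc arrays, and in 8 of 22 carriers they lie right of them.

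The first comparison asked which transport genes differ between the germinal disc region of the ovulated oocyte and granulosa cells. In Ov GDR 10 members were called higher than in F1 GCs, or 22.7% of 44, against 6.51% of all probe sets and 10.1% of the brightest probe sets of all genes. In the other direction 4 members were called lower, or 9.09%, near the 8.54% of all probe sets and 12.2% of the brightest probe sets. Members gave more signal than most genes, and of the 7252 genes with a group mean of at least 4 log2 units 15.3% were called higher and 20.8% lower. The median log2 difference was 0.36 over the members and 0.07 over all probe sets. The members called higher were 7 nucleoporins (NUP155, NUP35, NUP160, NUP88, NUP62, NUP43 and NUP98), 2 importin alphas (KPNA2 and KPNA4) and 1 exportin (XPO5), and those called lower were the carriers TNPO1, KPNA1, IPO13 and XPO1.

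**Figure D3:**
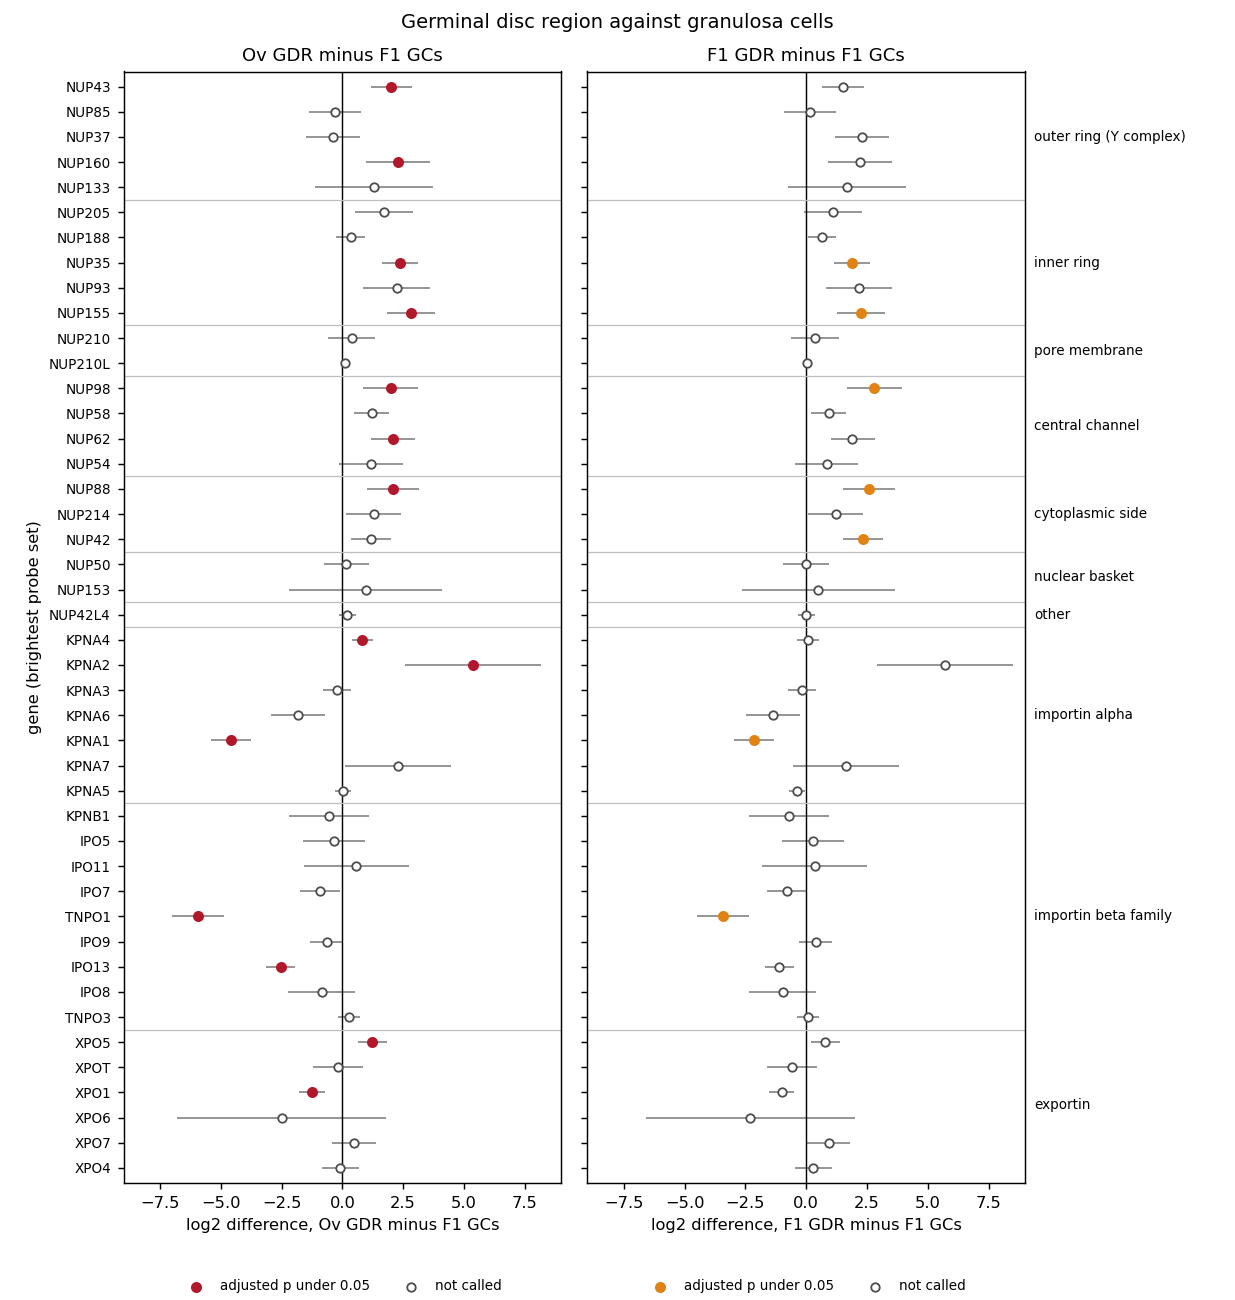
log2 difference of each of the 44 members (x axis) with its 95% confidence interval, for Ov GDR minus F1 GCs (left) and F1 GDR minus F1 GCs (right), filled where called at an adjusted p under 0.05. The filled points of nucleoporins, 7 on the left and 5 on the right, all lie above 0. Those of carriers lie on both sides of 0 on the left and only below 0 on the right.

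Nucleoporins had a median log2 difference of 1.26 between Ov GDR and F1 GCs, with 20 of 22 above 0 and 7 called higher, while 70.9% of all probe sets and 64.6% of the brightest probe sets of all genes were above 0. NUP210L and NUP42L4, at background in each group, are counted among the 22. The 2 below 0, NUP37 and NUP85, had differences of −0.40 and −0.30. In the inner ring of the scaffold 2 of 5 members were called higher. NUP155, a scaffold protein of this ring, measured 7.64 and 8.43 in Ov GDR, 7.31 and 7.61 in F1 GDR, and 5.28 and 5.12 in F1 GCs. Each germinal disc array was above each granulosa array, and the difference between Ov GDR and F1 GCs was 2.83 ± 0.38 (SE), a 7.12-fold difference with an adjusted p of 0.0143. NUP35, which links the inner ring to the membrane, measured 9.51 and 9.55 in Ov GDR, 8.80 and 9.24 in F1 GDR, and 7.40 and 6.91 in F1 GCs. It was 5.19-fold higher in Ov GDR than F1 GCs (2.38 ± 0.28, adjusted p = 0.0112). NUP205, the brightest of this ring, measured 9.19 and 10.47 in Ov GDR, 9.21 and 9.24 in F1 GDR, and 8.24 and 8.01 in F1 GCs. Here too no granulosa array reached a germinal disc array, but the difference of 1.70 was not called (adjusted p = 0.0752). NUP93, with values between 5.38 and 8.51 over the arrays, was also not called (2.23, adjusted p = 0.0563), nor was NUP188, with values between 8.20 and 9.11 (difference 0.35).

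The outer ring, or Y complex, holds the coat-like scaffold of the pore. Of its 5 members under the symbols of the rule, 2 were called higher in Ov GDR than F1 GCs. NUP160 measured 6.96 and 8.18 in Ov GDR, 7.70 and 7.31 in F1 GDR, and 5.11 and 5.45 in F1 GCs. It was 4.89-fold higher in Ov GDR than F1 GCs (2.29 ± 0.50, adjusted p = 0.0484), which was 7.45-fold without Ov GDR 1 and 3.21-fold without Ov GDR 2. NUP43 measured 9.04 and 9.44 in Ov GDR, 8.42 and 9.06 in F1 GDR, and 7.37 and 7.07 in F1 GCs. The Ov GDR and F1 GDR arrays overlapped and both lay above F1 GCs, and the difference between Ov GDR and F1 GCs was 2.02 ± 0.33 (adjusted p = 0.0237). NUP133, with 4.77 and 7.49 on the Ov GDR arrays and values from 4.74 upwards elsewhere, was not called, and neither was NUP85, with values between 7.25 and 8.39. NUP37, a further member of this ring, had another order of groups. It measured 5.89 and 6.62 in Ov GDR, 8.66 and 9.25 in F1 GDR, and 6.90 and 6.41 in F1 GCs, so that both F1 GDR arrays lay above the other 4. Its differences of −2.70 for Ov GDR minus F1 GDR and 2.30 for F1 GDR minus F1 GCs did not pass the threshold (adjusted p = 0.068 and 0.0575), and it was singled out after its values were seen.

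Of the nucleoporins of the channel, 2 of 4 were called higher in Ov GDR than F1 GCs. NUP98 binds carriers in the channel, and in vertebrates its gene also encodes the scaffold protein NUP96. It measured 8.55 and 7.46 in Ov GDR, 8.78 and 8.86 in F1 GDR, and 6.16 and 5.88 in F1 GCs. The difference between Ov GDR and F1 GCs was 1.99 ± 0.43 (adjusted p = 0.0481), and both germinal disc groups were clear of the granulosa arrays. NUP62, a phenylalanine-glycine protein of the central channel, was also called higher in Ov GDR (2.08, 4.23-fold, adjusted p = 0.0249), while the differences of its partners NUP54 (1.18, values between 5.08 and 6.92) and NUP58 (1.22, values between 6.18 and 7.61) were not called. On the cytoplasmic side 1 of 3 members was called higher. NUP88, which holds NUP214 at the pore, measured 8.12 and 7.96 in Ov GDR, 8.06 and 9.02 in F1 GDR, and 6.08 and 5.82 in F1 GCs. It was 4.26-fold higher in Ov GDR than F1 GCs (2.09 ± 0.40, adjusted p = 0.0364), and NUP214 itself, with values between 5.47 and 7.36, was not called (difference 1.30).

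Among the members, no nucleoporin of the nuclear basket or the pore membrane was called in limma, in any comparison. The pore membrane proteins NDC1 and POM121C, outside the symbols of the rule, were called and are given below. NUP50, a basket protein that helps to free importin alpha from its cargo, measured 7.34 and 8.01 in Ov GDR, 7.25 and 7.74 in F1 GDR, and 7.55 and 7.45 in F1 GCs. The 3 groups overlapped, and the interval of the difference between Ov GDR and F1 GCs ran from −0.77 to 1.11. NUP210, a membrane glycoprotein of the pore, measured 5.66 and 4.84 in Ov GDR, 5.41 and 5.06 in F1 GDR, and 5.00 and 4.74 in F1 GCs. Its interval for Ov GDR minus F1 GCs ran from −0.60 to 1.36. NUP153 of the basket measured 2.34 and 5.85 in Ov GDR, 4.09 and 3.17 in F1 GDR, and 3.08 and 3.19 in F1 GCs. It differed by 3.51 log2 units between the Ov GDR arrays and allows no comparison at this spread.

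Importin alphas were called in both directions, 2 of 7 higher and 1 lower in Ov GDR than F1 GCs. KPNA2 measured 9.58 and 11.77 in Ov GDR, 10.70 and 11.30 in F1 GDR, and 6.43 and 4.15 in F1 GCs. All germinal disc arrays were at least 3 log2 units above both granulosa arrays, which themselves lay 2.28 apart. The difference between Ov GDR and F1 GCs was 5.38 ± 1.06 (41.7-fold, adjusted p = 0.0385). The fold was 92.1 without F1 GCs 1, 18.9 without F1 GCs 2, 88.9 without Ov GDR 1 and 19.6 without Ov GDR 2. KPNA1, which serves the same adaptor function, was instead highest in granulosa cells. It measured 3.48 and 3.90 in Ov GDR, 5.91 and 6.31 in F1 GDR, and 8.25 and 8.30 in F1 GCs. The 3 groups did not overlap, and the difference between Ov GDR and F1 GCs was −4.59 ± 0.32 (24.0-fold, adjusted p = 0.00385). In Ov GDR its signal was within 1 log2 unit of the background of the arrays.

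KPNA4 measured 9.66 and 9.87 in Ov GDR, 8.96 and 9.09 in F1 GDR, and 8.99 and 8.91 in F1 GCs. Only the Ov GDR arrays stood above the rest, by 0.81 ± 0.17 log2 units over F1 GCs (adjusted p = 0.041). The other importin alphas were not called. KPNA3 ranged between 8.48 and 8.87 over the 6 arrays, and its interval for Ov GDR minus F1 GCs ran from −0.79 to 0.36. KPNA6 measured 5.83 and 4.92 in Ov GDR, 6.06 and 5.57 in F1 GDR, and 7.10 and 7.26 in F1 GCs (difference −1.81, adjusted p = 0.0567). KPNA7, an importin alpha of oocytes and early embryos in mammals, was at background in F1 GCs (2.45 and 2.46) and above it in Ov GDR (3.65 and 5.88) and F1 GDR (3.54 and 4.67), with an adjusted p of 0.129 for Ov GDR against F1 GCs. KPNA5 lay between 2.92 and 3.46 on all arrays.

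In the importin beta family 2 of 9 members were called lower in Ov GDR than F1 GCs. TNPO1, which imports RNA-binding proteins such as hnRNP A1, measured 3.21 and 2.98 in Ov GDR, 6.08 and 5.12 in F1 GDR, and 9.12 and 8.93 in F1 GCs. Both Ov GDR arrays were at background, the F1 GDR arrays were in between, and the groups did not overlap. The difference between Ov GDR and F1 GCs was −5.93 ± 0.41 (adjusted p = 0.0039), at least 58.9-fold when the background is taken as the level of Ov GDR. IPO13, which imports the SUMO-conjugating enzyme UBC9 in mammals, had the same order at lower signal. It measured 2.54 and 2.47 in Ov GDR, at background, 4.20 and 3.65 in F1 GDR, and 5.03 and 5.05 in F1 GCs. Its difference between Ov GDR and F1 GCs was −2.54 ± 0.23 (at least 3.73-fold, adjusted p = 0.00611). KPNB1, importin beta itself, measured 8.85 and 7.23 in Ov GDR, 7.59 and 8.21 in F1 GDR, and 8.84 and 8.36 in F1 GCs. The arrays of the 3 groups overlapped, and the interval for Ov GDR minus F1 GCs, from −2.20 to 1.08, is wide. The other members of the family were not called in any comparison. IPO5 and IPO7, which import ribosomal proteins, ranged over the arrays between 7.26 and 8.78 and between 6.54 and 7.81. IPO9, an importer of histones, ranged between 5.11 and 6.24, and IPO11, which imports ubiquitin-conjugating enzymes in mammals, between 7.16 and 9.52. IPO8 ranged between 2.71 and 4.29, and TNPO3, which imports splicing factors of the SR family, between 2.50 and 3.04.

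Of the 6 exportins, 1 was called higher and 1 lower. XPO5, which exports precursors of microRNAs, measured 9.24 and 9.03 in Ov GDR, 8.84 and 8.52 in F1 GDR, and 7.96 and 7.82 in F1 GCs. The groups followed each other without overlap, and the difference between Ov GDR and F1 GCs was 1.24 ± 0.22 (2.36-fold, adjusted p = 0.0309). XPO1, the general exporter of proteins with leucine-rich export signals, measured 7.89 and 7.94 in Ov GDR, 8.25 and 8.06 in F1 GDR, and 9.18 and 9.15 in F1 GCs. It was lower in Ov GDR than F1 GCs by 2.38-fold (−1.25 ± 0.20, adjusted p = 0.0228), a call that was lost when the arrays were set to equal levels of 3 reporter genes (−0.82, adjusted p = 0.365). In that fit limma also gave probe sets of like signal 1 common spread, so scaling and spread cannot be told apart in this loss. XPO6, known as the exporter of actin and kept low in the oocytes of Xenopus, measured 4.73 and 8.78 in Ov GDR, 8.37 and 5.54 in F1 GDR, and 9.14 and 9.37 in F1 GCs. The low array of either germinal disc group was the one with the wider 3′ to 5′ differences, whose part in this value was not tested, and no difference was called (−2.50 ± 1.64, adjusted p = 0.295). The exporter of tRNA, XPOT, ranged between 8.10 and 9.12 over the arrays, XPO4, an exporter of the translation factor eIF5A, between 4.69 and 5.46, and XPO7 between 6.09 and 7.33, and none of them was called.

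**Figure D4:**
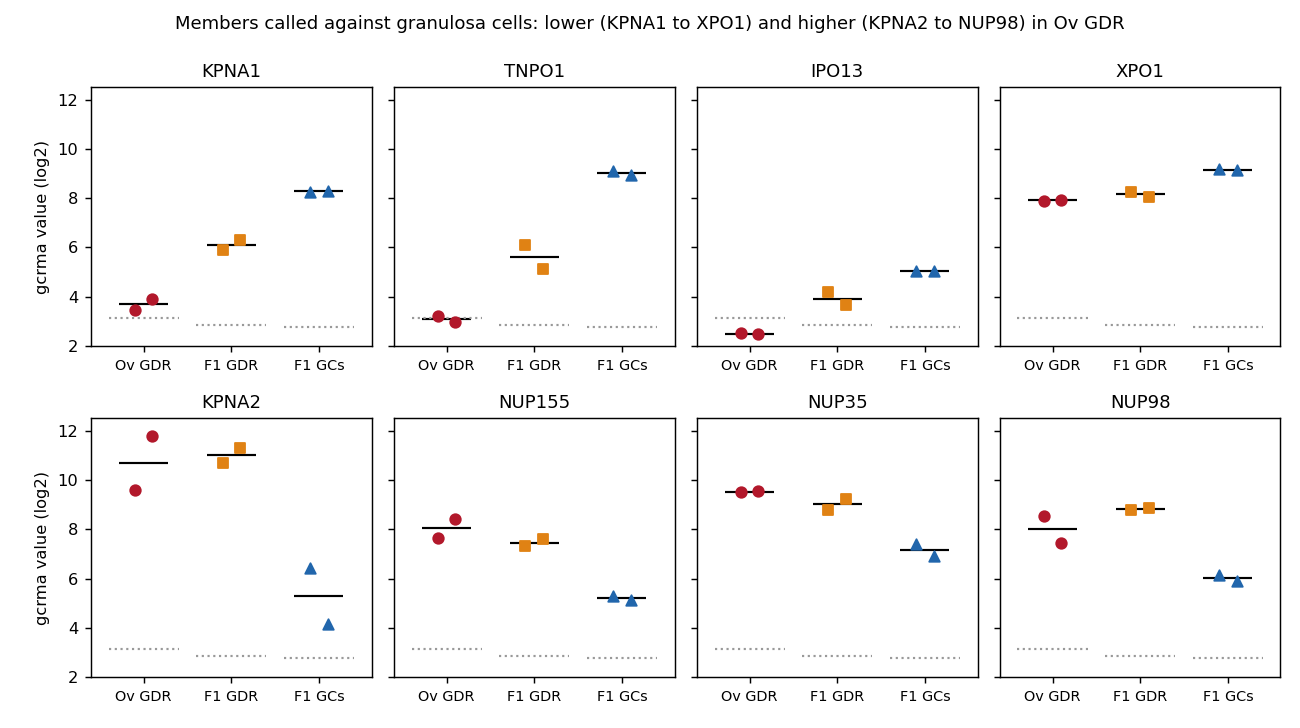
gcrma log2 values (y axis) of 4 members called lower (top) and 4 called higher (bottom) in Ov GDR than F1 GCs, per array, with the group mean as a bar and the mean background of the group's arrays as a dotted line. KPNA1, TNPO1 and IPO13 are lowest in Ov GDR and highest in F1 GCs, with TNPO1 and IPO13 at background in Ov GDR; KPNA2 lies between 9.58 and 11.77 in the germinal disc groups and at 6.43 and 4.15 in F1 GCs.

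These calls rest on 2 pools per group, and no member passed in any comparison when the limma p-values were adjusted by Bonferroni. The study applied Bonferroni to p-values of varmixt, a combination that was not used here. The probe sets of BTG4, DAZL, ZP2 and MOS, which the study lists as differential, did not pass by limma with Bonferroni either. Without F1 GCs 1 or without F1 GCs 2 the 10 members called higher in Ov GDR became 1 and 0, without either F1 GDR array 4, and without Ov GDR 1 and Ov GDR 2 they became 17 and 16, whereas TNPO1, KPNA1 and IPO13 stayed called lower without any one of the 6 arrays. The share of all probe sets called without an array is not given, so these changes in count cannot be read as particular to the members. The 3.96-fold difference of NUP98 was 2.72-fold without Ov GDR 1 and 5.77-fold without Ov GDR 2.

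The second comparison set the germinal disc region against the granulosa cells of the same follicle stage. In F1 GDR 5 members were called higher than in F1 GCs, or 11.4%, against 2.10% of all probe sets and 4.34% of the brightest probe sets of all genes, and 7.58% of genes with a group mean of at least 4 log2 units. Another 2 were called lower, or 4.55%, against 3.09% and 3.34%, near the background. All 5 called higher were nucleoporins (NUP98, NUP88, NUP42, NUP155 and NUP35) and both called lower were carriers (TNPO1 and KPNA1). The median difference was 1.36 over the nucleoporins, of which 21 of 22 were above 0, and −0.29 over the carriers, of which 10 of 22 were, while 63.3% of all probe sets and 62.7% of the brightest probe sets were above 0. Both comparisons use the same F1 GCs arrays, and their values are given side by side without a test of their likeness.

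On the cytoplasmic side 2 of 3 members were called higher in F1 GDR. NUP42, which works with GLE1 in the last step of mRNA export, measured 4.94 and 5.26 in Ov GDR, 5.97 and 6.57 in F1 GDR, and 3.94 and 3.92 in F1 GCs. Both F1 GDR arrays lay above the other 4, and the difference between F1 GDR and F1 GCs was 2.34 ± 0.31 (5.06-fold, adjusted p = 0.0335), while that between Ov GDR and F1 GCs was 1.17 and not called (adjusted p = 0.0748). NUP88 was 6.03-fold higher in F1 GDR than F1 GCs (2.59 ± 0.40, adjusted p = 0.0428). NUP98 of the channel was 6.96-fold higher (2.80 ± 0.43, adjusted p = 0.0424), and its F1 GDR arrays lay above all others. In the inner ring NUP155 differed by 2.26 ± 0.38 (adjusted p = 0.0478) and NUP35 by 1.87 ± 0.28 (adjusted p = 0.0406).

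TNPO1 was 10.7-fold lower in F1 GDR than F1 GCs (−3.42 ± 0.41, adjusted p = 0.0306), which was 15.0-fold without F1 GDR 1 and 7.70-fold without F1 GDR 2. KPNA1 was 4.48-fold lower (−2.16 ± 0.32, adjusted p = 0.0382). KPNA2 had a difference of 5.71 ± 1.06, or 52.2-fold, with an adjusted p of 0.0595, so it was not called in this comparison, although all 4 arrays were apart. XPO1 (−1.01, adjusted p = 0.0671) and IPO13 (−1.12, adjusted p = 0.0705) missed the threshold too. None of the 7 calls held when any one of the 4 arrays compared was left out. More members were called higher without either Ov GDR array, which here adds only to the estimate of spread. The share of all probe sets called in those fits is not given, so this rise cannot be read as particular to the members.

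The third comparison asked what differs between the germinal disc region after ovulation and that of the F1 follicle. In limma 0 members were called higher in Ov GDR than F1 GDR, against 0.234% of all probe sets and 0.200% of the brightest probe sets, and 2 were higher at an unadjusted p under 0.05, which 11.2% of all probe sets were. One member was called lower, KPNA1, that is 1 of 44 or 2.27%, against 1.63% and 3.05%, and 6 were lower at an unadjusted p under 0.05, which 7.53% of all probe sets were. KPNA1 was 5.36-fold lower in Ov GDR than F1 GDR (−2.42 ± 0.32, adjusted p = 0.0458), and this call was lost without any F1 GDR or F1 GCs array. TNPO1, at background in Ov GDR, was at least 5.49-fold below its F1 GDR signal (difference −2.50) without being called (adjusted p = 0.0747). IPO13 had a difference of −1.42 (adjusted p = 0.0705) and IPO9 one of −1.05 (adjusted p = 0.156). The median difference was 0.09 over the nucleoporins and −0.17 over the carriers, against 0.05 over all probe sets, and 0.54 and 0.29 with arrays set to equal levels of reporter genes. The nucleoporins' median was 0.49 without Ov GDR 1, with 16 of 22 above 0, and −0.29 without Ov GDR 2, with 7 of 22 above 0, so its direction rests on which Ov GDR array is used. The summed granulosa markers, with FOXL2 counted or left out, were lowest in Ov GDR, intermediate in F1 GDR and highest in F1 GCs. Single markers did not all follow this order, and FOXL2, AMH and FSHR did not. KPNA1, TNPO1 and IPO13 had the order of the sum, as did the group means of IPO7, KPNA3, KPNA6, XPO1 and XPO6. The part of the overlying granulosa cells in the values of these members was not tested.

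Other genes of the pore and of the Ran cycle, outside the symbols of the rule, were read from the same fit. Of 9 measured pore proteins not named NUP, 2 were called higher in Ov GDR than F1 GCs, where 6.51% of all probe sets and 10.1% of the brightest probe sets were. Both are membrane-bound: NDC1, an anchor of the pore, measured 7.90 and 9.67 in Ov GDR, 8.23 and 8.73 in F1 GDR, and 5.14 and 4.72 in F1 GCs (3.86 ± 0.66, adjusted p = 0.027). POM121C, of the pore membrane protein family POM121, measured 9.90 and 8.88 in Ov GDR, 8.60 and 7.89 in F1 GDR, and 6.64 and 6.41 in F1 GCs (2.86 ± 0.46, adjusted p = 0.0234). Neither germinal disc group overlapped F1 GCs for these genes. AAAS, AHCTF1, GLE1, RAE1, SEC13, SEH1L and TPR were not called. Their differences between Ov GDR and F1 GCs ran from −0.66 (TPR) to 1.32 (AHCTF1), with 0.81 for SEC13 and 0.91 for SEH1L. None of the 9 was called in the other comparisons.

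Among 10 genes of the Ran cycle and further carriers, 2 were called higher and 1 lower in Ov GDR than F1 GCs, where 10.1% and 12.2% of the brightest probe sets were. CSE1L, the exportin that returns importin alpha to the cytoplasm, measured 10.24 and 10.95 in Ov GDR, 10.07 and 9.99 in F1 GDR, and 8.20 and 8.10 in F1 GCs. It was called higher in Ov GDR (2.44 ± 0.27, adjusted p = 0.00926) and in F1 GDR (1.88 ± 0.27, adjusted p = 0.037) than in F1 GCs. RANBP1, a cofactor in GTP hydrolysis by Ran, measured 9.65 and 9.68 in Ov GDR, 8.75 and 8.82 in F1 GDR, and 7.84 and 7.89 in F1 GCs, and was called higher in Ov GDR than F1 GCs (1.80 ± 0.17, adjusted p = 0.00699). RCC1, the nucleotide exchange factor of Ran on chromatin, was at background in Ov GDR (3.09 and 2.41), measured 3.89 and 3.76 in F1 GDR and 5.11 and 4.92 in F1 GCs, and was called lower in Ov GDR than F1 GCs (−2.26 ± 0.27, at least 3.65-fold, adjusted p = 0.0115). RAN itself was not called in any comparison.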

How the data were processed

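The 6 arrays were normalized in 1 gcrma run by the authors. The deposited table gives the resulting log2 values of 38535 probe sets, 1 column per array, and no further scaling was applied. No version of the upstream software was found in the sources. After removal of 96 Affymetrix controls, 38439 probe sets were fitted with limma 3.58.1 in R 4.3.3 (lmFit, and eBayes with a trend, 3 groups of 2 arrays, two-sided, Benjamini-Hochberg). Errors are standard errors of that fit, with 3 residual and 1.66 prior degrees of freedom, and intervals are 95%. The arrays are 2 pools per group, so p-values measure the spread between pools. An exact permutation test of 2 against 2 arrays cannot go below p = 0.333 and was not run. Folds against a group at background were computed against the array background and written as at least. The code was tested on simulated data.

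Named with values on all arrays were, per comparison and direction, the 5 called members with the largest difference and no overlap, and the brightest member of each role class; XPO6, NUP37, NUP153, KPNA6 and KPNA7 were added after their values were seen. Members, lists and tests were chosen with earlier results of these data known. The pathway lists held 14 pore proteins, 16 genes of the Ran cycle, 19 of mRNA export and 14 of the nuclear lamina, of which 9, 10, 13 and 11 were measured. Alternatives were another adjustment, spread estimate, filter, probe set choice and scaling, and arrays left out. The rebuilt variance mixture stands for the varmixt method of the study. The light period and the RNA amounts differ between the labels and the methods. By the labels, total RNA was 17 and 16.5 µg for Ov GDR, 17.2 and 20 µg for F1 GDR, and 7 and 14 µg for F1 GCs. The part of these amounts in the differences between groups was not tested.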

Additional observations from a re-analysis of the deposited data

How the results depend on the processing

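Counts are given for Ov GDR over F1 GCs higher and lower (10 and 4), F1 GDR over F1 GCs higher and lower (5 and 2), and Ov GDR over F1 GDR lower (1). The share of all probe sets called in each setting is not given, so a rise or fall cannot be read as particular to the members. With Bonferroni adjustment of the limma p-values all became 0. With a separate variance per probe set they were 0 and 1, 0 and 0, and 0. With the suffix A of the labels as a replicate block they were 2 and 3, 0 and 0, and 0; the deviations of same-suffix arrays correlated by −0.15, 0.17 and −0.15 over probe sets, so the suffix was not taken as a pairing. With only the 4 arrays compared, 4 and 3, 12 and 3, and 0. With the variance mixture, 13 and 5, 19 and 9, and 5. With arrays set to equal levels of 3 reporter genes (ACTB, GAPDH and EEF1A1), 16 and 4, 11 and 3, and 3. This scaling subtracted −0.72 log2 units from Ov GDR 1 and 0.14 from Ov GDR 2. Of the 6 arrays it raised only Ov GDR 1. The mean change was thus a rise of 0.29 over the Ov GDR arrays, while F1 GDR moved by −0.16 and F1 GCs by −0.13. In that fit limma gave probe sets of like signal 1 common spread, and XPO6 was among the members called lower. The medians were then 0.79 for Ov GDR minus F1 GCs and 0.52 for Ov GDR minus F1 GDR, and the carriers' median turned to 0.16, against −0.27, for Ov GDR minus F1 GCs and to 0.29, against −0.17, for Ov GDR minus F1 GDR. With a group mean of at least 4, 13 and 5, 11 and 4, and 4. With the most variable probe set per gene, 6 and 4, 3 and 3, and 1, and the median for F1 GDR minus F1 GCs was 0.05. Without the trend, 8 and 5, 7 and 3, and 2, with 7 of the 8 higher among the 10. With each array left out in turn, the ranges were 0 to 17 and 3 to 5, 0 to 12 and 0 to 3, and 0 to 3, members higher in Ov GDR than F1 GDR were 0 to 2, and the medians ran from 0.27 to 0.41 (Ov GDR minus F1 GCs), 0.38 to 0.55 (F1 GDR minus F1 GCs) and −0.27 to 0.07 (Ov GDR minus F1 GDR). None of the 22 calls, of 15 members, changed direction under these alternatives. Only the reporter gene scaling and the choice of probe set could have reversed one. The other fits of all arrays keep the same differences. The compared groups of each call did not overlap, so leaving out any one array keeps the sign. The cause of these changes was not tested.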

Other observations

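Of 13 measured mRNA export factors, 3 were called higher in Ov GDR than F1 GCs, where 6.51% of all probe sets, 10.1% of the brightest probe sets of all genes and 15.3% of genes with a group mean of at least 4 were. ALYREF, an adaptor that loads the export receptor onto mRNA, measured 10.17 and 10.34 in Ov GDR, 9.95 and 10.00 in F1 GDR, and 8.79 and 8.60 in F1 GCs, and was called higher in both Ov GDR (1.56 ± 0.15, adjusted p = 0.00701) and F1 GDR (1.28 ± 0.15, adjusted p = 0.03) than in F1 GCs. THOC3, a subunit of the THO complex, differed by 1.92 ± 0.31 (3.79-fold, adjusted p = 0.0229) and POLDIP3 by 1.25 ± 0.26 (2.38-fold, adjusted p = 0.0426), both higher in Ov GDR. None was called between Ov GDR and F1 GDR.

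Of 11 genes of the nuclear lamina and inner nuclear membrane, 1 was called higher and 1 lower in Ov GDR than F1 GCs, near the 10.1% and 12.2% of the brightest probe sets. TMPO, a lamina-associated protein, measured 9.77 and 10.47 in Ov GDR, 9.92 and 10.22 in F1 GDR, and 8.34 and 8.20 in F1 GCs (Ov GDR against F1 GCs 1.85 ± 0.29, adjusted p = 0.0208; F1 GDR against F1 GCs 1.80 ± 0.29, adjusted p = 0.0442). LBR, the lamin B receptor, measured 6.66 and 5.69 in Ov GDR, 7.40 and 7.26 in F1 GDR, and 8.66 and 8.50 in F1 GCs, and was lower in Ov GDR than F1 GCs by 5.30-fold (adjusted p = 0.0254). LMNA and SUN2 were at background in each group.

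Members with several probe sets did not always show the same size of difference or the same calls. For Ov GDR minus F1 GCs, 1 of 4 probe sets was called higher for NUP160 and NUP62, and 1 of 3 for NUP98 and KPNA4. For NUP35 and NUP88 it was 1 of 2, and for XPO5 2 of 6. For F1 GDR minus F1 GCs it was 1 of 2 for NUP42, NUP35 and NUP88, and 1 of 3 for NUP98. How far the nucleoporins' median depends on the choice of probe set was not tested. A second probe set of XPO1 measured 3.31 and 3.02 in Ov GDR, 3.13 and 2.84 in F1 GDR, and 7.45 and 7.17 in F1 GCs, a difference of −4.14 between Ov GDR and F1 GCs (adjusted p = 0.00322), against −1.25 for the brightest one, and it was also called lower in F1 GDR than F1 GCs (−4.32, adjusted p = 0.0189), where the brightest was not. A second probe set of TNPO1 measured 4.03 and 4.04 in Ov GDR, 3.59 and 3.64 in F1 GDR, and 6.58 and 5.62 in F1 GCs (−2.06, adjusted p = 0.0294). Here F1 GDR was lowest, unlike in the brightest probe set. The second probe set of KPNA1 lay between 2.59 and 2.99 on all arrays and showed no called difference. Of the 3 probe sets of IPO13 only the brightest was called. The others, at 3.32 or under on each array, differed by −0.08 (adjusted p = 0.833) and −0.47 (adjusted p = 0.0932) between Ov GDR and F1 GCs. Some members whose brightest probe set was not called had another that was. For Ov GDR minus F1 GCs these were NUP58 (2.63, adjusted p = 0.0302), NUP214 (0.60, adjusted p = 0.023, with values of 3.69 or under) and NUP93 (0.33, adjusted p = 0.0309, at background in both groups). For F1 GDR minus F1 GCs a dimmer probe set of XPO6 was called lower (−2.02, adjusted p = 0.0365). No gene had probe sets called in opposite directions within a comparison.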
